A study of Mus musculus with 15 samples.

Results

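Neurons assemble their intermediate filaments from the products of 5 genes, which are described here: Nefl, Nefm and Nefh, which encode the light, medium and heavy neurofilament chains, Ina, which encodes alpha-internexin, and Prph, which encodes peripherin. They were taken by name from the 54232 genes of the deposited tables, and all 5 were found. The family was chosen by the levels of Nefm and Nefl, known from earlier work on these tables to be higher with the mutant histone in Atrx-floxed tumours, so values from that contrast are given below as a description with no test.

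RNA was sequenced from 15 brain tumours of C57BL/6 mice, in 4 groups. All mice were Nestin Tv-a, p53 fl/fl: Tv-a, the receptor that lets avian RCAS virus enter, is made in Nestin-expressing progenitor cells, and floxed p53 is open to removal by Cre. DF-1 chicken cells carrying RCAS-Cre, RCAS-PDGFA and a GFP-tagged histone virus were injected into the cortex of every mouse, so that the growth factor PDGFA and floxed p53 are common to all groups. The groups were ATRXfl_G34R (genotype Np53fl;ATRXfl/fl with RCAS-H3.3G34R-GFP, n = 4), ATRXfl_WT (Np53fl;ATRXfl/fl with RCAS-H3.3WT-GFP, n = 4), p53_G34R (Np53fl with RCAS-H3.3G34R-GFP, n = 3) and p53_WT (Np53fl with RCAS-H3.3WT-GFP, n = 4). Atrx is a chromatin remodeller that helps place histone H3.3, and H3.3G34R is a substitution found in human gliomas. Tumours were taken when the animal was ill rather than at a fixed time, and no ages are stated in the labels. The labels do not tie each library to its own mouse, and p-values measure the spread between libraries.

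Neurofilaments are flexible polymers that fill axons and set their calibre. The light chain forms the core together with alpha-internexin, the medium and heavy chains add long side arms, and peripherin joins the polymer mainly in peripheral and some brainstem and spinal neurons. During development alpha-internexin comes first, the light and medium chains follow, and the heavy chain is made late, as axons mature. Glial and progenitor cells build their filaments from other genes of the family, such as Vim, Nes and Gfap.

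Positions are on mm10 with the GENCODE vM21 gene models. Nefl (ENSMUSG00000022055) lies at chr14:68083863-68089095 on the plus strand, and Nefm (ENSMUSG00000022054) at chr14:68082590-68124846 on the minus strand. These gene models share 1108 exonic bases on opposite strands, and since the strand setting of the counting is not given in the sources used here, reads in that stretch cannot be told apart. Nefh (ENSMUSG00000020396) lies at chr11:4938754-4948064 on the minus strand, Ina (ENSMUSG00000034336) at chr19:47014698-47025327 on the plus strand and Prph (ENSMUSG00000023484) at chr15:99055174-99058978 on the plus strand. Ina shares 456 exonic bases with Nt5c2 on the other strand, with the same limit.

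Ina and Prph were the members with the highest level per kilobase, each in different tumours. The 250 bases just before their RefSeq starts are shown. They come from the RefSeq promoter table of build GRCm38.p6, in which 2 of the 5 members matched. Capitals mark the TATA box letters TATAAA and the E-box letters CANNTG, the motif bound by proneural helix-loop-helix proteins, each searched on both strands.
Ina, chr19:47014431-47014680, plus strand: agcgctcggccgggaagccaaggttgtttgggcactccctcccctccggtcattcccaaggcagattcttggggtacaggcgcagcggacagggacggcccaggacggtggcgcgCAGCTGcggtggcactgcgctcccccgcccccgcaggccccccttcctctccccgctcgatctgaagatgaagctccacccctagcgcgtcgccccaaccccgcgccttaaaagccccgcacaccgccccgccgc
Prph, chr15:99054924-99055173, plus strand: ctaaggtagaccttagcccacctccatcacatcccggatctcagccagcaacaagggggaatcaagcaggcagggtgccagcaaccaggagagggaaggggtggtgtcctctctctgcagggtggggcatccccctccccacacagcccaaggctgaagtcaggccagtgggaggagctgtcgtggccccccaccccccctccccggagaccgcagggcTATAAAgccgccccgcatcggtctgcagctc
The Ina stretch holds 1 match to CANNTG, beginning at position -135 from the RefSeq start, and 0 to TATAAA. That start lies upstream of the GENCODE start of Ina given above. The Prph stretch holds 1 match to TATAAA, beginning at position -31, and 0 to CANNTG. Neither holds CCAAT on either strand. Among 32851 RefSeq stretches of the same length, 12.4% hold TATAAA, 66.2% hold CANNTG and 33.8% hold CCAAT. Both stretches are rich in G and C, at 70.8% for Ina and 65.2% for Prph against a median of 52.4%.

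Libraries held 22807315 to 35679129 reads in genes. Atrx lay between 1346 and 3124 normalized counts in the 8 floxed tumours and between 5143 and 8540.0 in the 7 intact ones, without overlap. Summed markers of oligodendrocyte progenitors (6 genes) were at 153235 to 425009 normalized counts in 14 libraries and at 24664 in p53_WT replicate 3. Summed counts of 10 genes of mature cortical neurons were at 1124 to 6370.3 in 13 libraries, at 29104 in ATRXfl_G34R replicate 3 and at 282865 in p53_WT replicate 3. Those same 2 libraries had the highest sums of 7 mature oligodendrocyte genes, 98737 and 108016, and are called cortex-rich below. The name stands for these sums alone, and the brain region behind the transcripts was not tested. In bulk tissue, fewer cells of a type and less RNA per cell cannot be told apart.

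The medium chain gene Nefm lay in a narrow range in 3 of the groups and in a wide one in p53_WT. Single-library levels are normalized counts scaled jointly over the 15 libraries, in the order of the replicates. In ATRXfl_G34R tumours Nefm was at 507, 1271, 726 and 519.7. In ATRXfl_WT tumours it was at 128, 117, 171 and 202. All 4 mutant-histone tumours lay above all 4 wild-type-histone tumours on the floxed background, the contrast behind the choice of genes. In p53_G34R tumours Nefm was at 674, 697 and 575, inside the range of the other mutant-histone group. In p53_WT tumours it was at 202, 46.8, 5575 and 717. The p53_WT tumours therefore spanned the whole range, with the lowest and the highest Nefm value of the study in the same group. By median the order was p53_G34R (674), ATRXfl_G34R (623), p53_WT (459) and ATRXfl_WT (149), and each neighbouring pair in that order overlapped.

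The light chain gene Nefl was scarce in most tumours and varied widely. It was at 23.3, 22.4, 515 and 244 in ATRXfl_G34R and at 8.80, 3.50, 1.74 and 9.47 in ATRXfl_WT, where 2 to 10 reads stood behind each value. These groups did not overlap, although the highest mutant-histone values were in the cortex-rich replicate 3 and in replicate 4. It was at 117, 56.2 and 30.2 in p53_G34R. It was at 1.08, 5.32, 4337 and 67.5 in p53_WT, the first of these resting on 1 read. Nefl was thus near the floor in 6 tumours, all of them with wild-type histone. They include every ATRXfl_WT tumour, the low side of the contrast that led to the choice of genes, so this is a description only. The other 2 wild-type-histone tumours were the cortex-rich p53_WT replicate 3 and replicate 4. The medians ran from 133 in ATRXfl_G34R through 56.2 in p53_G34R and 36.4 in p53_WT to 6.15 in ATRXfl_WT. The first 3 of these groups overlapped each other, and ATRXfl_WT overlapped p53_WT only.

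The heavy chain gene Nefh, made last as axons mature, was below 50 counts in 12 of 15 tumours. It was at 17.5, 7.11, 134 and 317 in ATRXfl_G34R. It was at 15.6, 3.50, 18.3 and 11.4 in ATRXfl_WT and at 42.6, 9.52 and 14.2 in p53_G34R. It was at 9.76, 36.1, 2710.4 and 36.3 in p53_WT. Only 3 libraries exceeded 100 counts, the cortex-rich pair and ATRXfl_G34R replicate 4, and all 4 groups overlapped. The same 3 libraries had the highest sums of mature oligodendrocyte genes, the third being 52236 in ATRXfl_G34R replicate 4, and the part of those cells in the Nefh values was not tested. The highest group median was 75.9 in ATRXfl_G34R and the lowest 13.5 in ATRXfl_WT.

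Ina, the early filament gene, was present at 165 counts or more in every tumour. It was at 1331, 1811, 848 and 434 in ATRXfl_G34R and at 596, 165, 602 and 1483 in ATRXfl_WT. It was at 449, 1448 and 1324 in p53_G34R and at 443, 996, 5043 and 1467.5 in p53_WT. Every group overlapped every other, and the highest value was again in the cortex-rich p53_WT replicate 3. Its medians ran from 1324 in p53_G34R through 1232 in p53_WT and 1089.6 in ATRXfl_G34R to 599 in ATRXfl_WT.

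Prph followed a different set of tumours. It was at 156, 166, 47.4 and 1476 in ATRXfl_G34R and at 43.99, 126, 42.7 and 76.7 in ATRXfl_WT. It was at 1676, 12.98 and 224 in p53_G34R and at 17.4, 1571, 134 and 501 in p53_WT. Values above 1000 occurred in 1 tumour of each group but ATRXfl_WT, so neither the histone nor Atrx separated them. The cortex-rich libraries were not among them, at 134 and 47.4. Medians were 318 in p53_WT, 224 in p53_G34R, 161 in ATRXfl_G34R and 60.3 in ATRXfl_WT, all with overlapping ranges. The sensory neuron channel gene Scn10a reached at most 9.40 counts in any library. Pou4f1, a sensory neuron regulator that some brain neurons also use, had a median of 148 counts over all 15 libraries. In the 3 tumours with the most Prph it was at 313 (p53_G34R replicate 1), 718 (p53_WT replicate 2) and 112 (ATRXfl_G34R replicate 4), on both sides of that median.

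**Figure D1:**
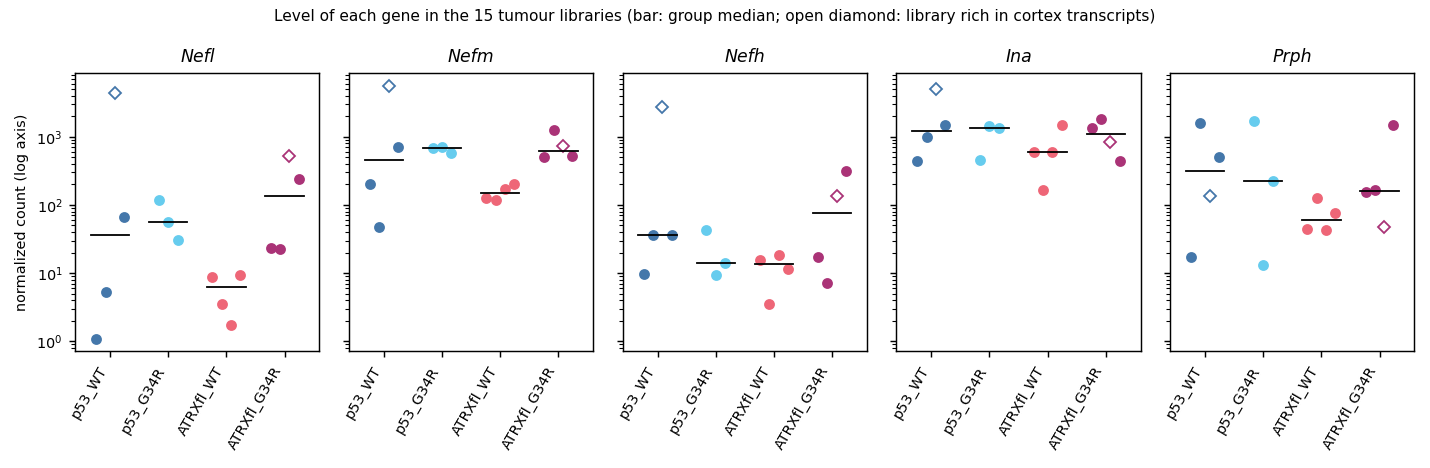
Normalized counts of each gene (log axis) in the 15 tumours by group, with 1 point per library, a bar at the group median and open diamonds for the 2 cortex-rich libraries. Nefm sits at 117 to 202 in ATRXfl_WT and at 507 to 1271 in ATRXfl_G34R, while p53_WT spreads from 46.8 to 5575.

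Dividing each value by exon length allows levels to be compared between genes. Over the 15 libraries the median level per kilobase was 307.4 for Ina, 89.9 for Nefm, 67.1 for Prph, 6.90 for Nefl and 4.38 for Nefh. Ina was the largest member in 11 tumours and Prph in 4, where it made up 66.3% (ATRXfl_G34R replicate 4), 46.4% (ATRXfl_WT replicate 2), 73.6% (p53_G34R replicate 1) and 70.7% (p53_WT replicate 2) of the summed level. The ratio of Nefl to Nefm per kilobase was 1.33 in p53_WT replicate 3 and 1.21 in ATRXfl_G34R replicate 3, the cortex-rich libraries, and 0.802 in ATRXfl_G34R replicate 4. In the other 12 it lay between 0.00920 and 0.298. By this ratio the light chain was scarce next to the medium chain in 12 of 15 tumours, in both histone groups and with Atrx floxed or intact. Nefl and Nefm share 1108 exonic bases on opposite strands, and how the counting of reads there bears on the ratio was not tested. The summed level per kilobase ran from 136 in ATRXfl_WT replicate 2 to 4550 in p53_WT replicate 3.

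**Figure D2:**
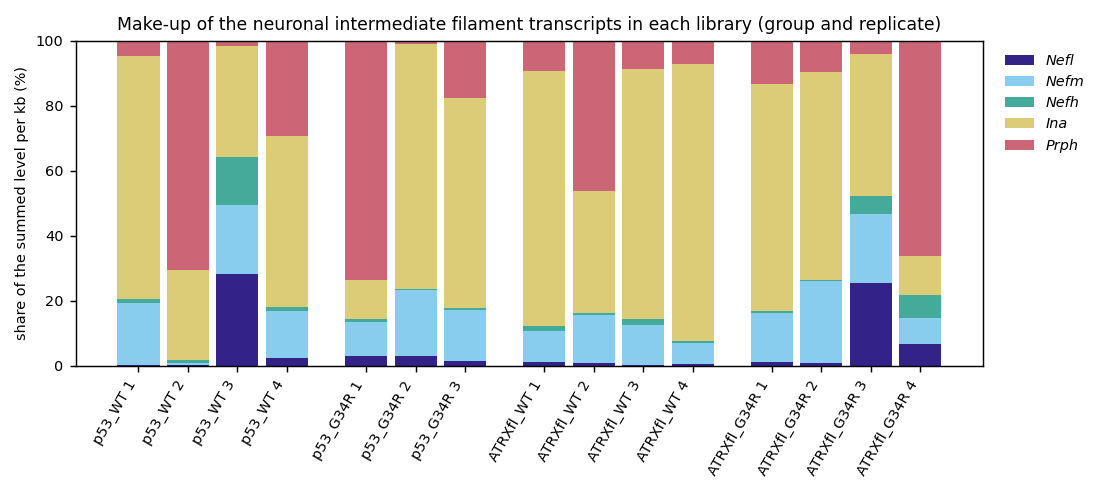
Share of each gene (percent, vertical axis) in the summed level per kilobase of the 5 genes, with 1 bar per library in the order of group and replicate. Ina is the largest share in 11 bars and Prph in 4, and Nefl exceeds 20% in the cortex-rich libraries alone (28.2% and 25.5%).

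The effect of H3.3G34R with Atrx intact was measured by setting p53_G34R against p53_WT, a comparison that uses no library of the contrast behind the choice of genes. None of the 5 genes passed the test. Their values, in counts scaled within the authors' table for the pair, were 664 ± 69.4 (SD, n = 3) against 1656 ± 2669 (SD, n = 4) for Nefm and 69.4 ± 45.5 against 1115 ± 2180 for Nefl. The log2 changes on the log2(value + 1) scale were 0.55 (SE 1.39) and 0.43 (SE 2.36), and the adjusted p was 0.99999 for each by limma. Because p53_WT replicate 3 sets the mean of its group, the difference of means and the log2 change have opposite signs for these 2 genes. Nefh was at 22.6 ± 18.2 against 706 ± 1356 (log2 -2.06, SE 1.74), Ina at 1100.3 ± 562 against 2019 ± 2097 (log2 -0.50, SE 0.80) and Prph at 649 ± 922 against 569 ± 724 (log2 -0.27, SE 1.88). These 3 also had a limma adjusted p of 0.99999. In total 2 log2 changes were positive and 3 negative with a median of -0.27, where the median over all 17873 genes tested was 0.00 and 50% were positive. By limma 0 of the 5 were called at an adjusted p under 0.05, beside 0% of all genes, and 0 had an unadjusted p under 0.05, beside 1.47% of all genes. DESeq2 gave no adjusted p for Nefl and Nefh and called 0 of the other 3, beside 0.059% of all genes. The edgeR test called 0 of the 5, beside 0% of all genes. Of the 5, 0 were free of overlap between the groups, beside 2.61% of all genes. Without p53_WT replicate 3 the log2 change was 1.76 for Nefm, 2.63 for Nefl, -0.37 for Nefh, 0.13 for Ina and -0.49 for Prph (limma adjusted p = 0.9998 for each), the remaining p53_WT values of Nefm being 202, 46.8 and 717. In the authors' deposited table the log2 changes were -1.32 for Nefm and -4.01 for Nefl, the adjusted p being 0.99992 for Nefm and not given for Nefl. All 10 mature cortical neuron genes were negative in this comparison (median -2.004), and their part in the members' values was not tested.

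Floxed Atrx was set against intact Atrx under wild-type histone (ATRXfl_WT, p53_WT, n = 4 each). This comparison shares the p53_WT tumours with the one above and the ATRXfl_WT tumours with the contrast that led to the choice of genes. Nefm and Nefl were known to be lower in ATRXfl_WT in that contrast, so a negative sign was favoured for them here. All 5 log2 changes were negative and none passed the test. Nefm was at 154 ± 39.2 (SD, n = 4) against 1632 ± 2632 (log2 -1.56, SE 1.22) and Nefl at 5.86 ± 3.82 against 1099 ± 2149 (log2 -2.90, SE 2.06). Nefh was at 12.2 ± 6.47 against 696 ± 1337 (log2 -2.79, SE 1.52). Ina was at 711 ± 552 against 1987 ± 2069 (log2 -1.31, SE 0.81) and Prph at 72.3 ± 39.1 against 559.8 ± 714 (log2 -1.67, SE 1.20). The adjusted p by limma was 0.97546 for all 5. The groups overlapped for every member, while 2.65% of all genes were free of overlap. The median of the 5 log2 changes was -1.67, beside -0.01 over all 17893 genes tested, of which 49.5% were positive. Of the 5, 0 were called by limma beside 0.0335% of all genes, and 0 had an unadjusted p under 0.05 beside 3.76%. DESeq2 again gave no adjusted p for Nefl and Nefh and called 0 of the other 3, beside 0.378%, and edgeR called 0 of the 5, beside 0.0112%. Without p53_WT replicate 3, the changes were -0.34 for Nefm (adjusted p = 0.9129), -0.70 for Nefl (0.8775), -1.10 for Nefh (0.7146), -0.68 for Ina (0.7974) and -1.89 for Prph (0.7202), all by limma. The 10 mature cortical neuron genes were also all negative (median -2.85, 1 with an unadjusted p under 0.05), which was not tested as a part of the members' values. In the authors' deposited table the adjusted p was 0.15625 for Nefm (log2 -3.40), 0.23497 for Prph (log2 -2.95) and 0.73144 for Ina (log2 -1.48). The log2 changes of Nefl (-7.55) and Nefh (-5.83), the largest of the 5 in the authors' deposited table, have no adjusted p there.

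In Atrx-floxed tumours, ATRXfl_G34R against ATRXfl_WT is the contrast in which Nefm and Nefl had been seen, and it is described only. All 5 genes had a positive log2 change, as did 49.9% of all genes tested, at 2.22 (SE 0.36) for Nefm, 3.95 (SE 1.05) for Nefl, 2.13 (SE 1.11) for Nefh, 1.65 (SE 0.91) for Prph and 0.84 (SE 0.64) for Ina. Nefh was at 117 ± 142 (SD, n = 4) against 11.95 ± 6.33, Prph at 455 ± 671 against 70.9 ± 38.3 and Ina at 1087 ± 584 against 698 ± 545, and these 3 overlapped between the groups. Nefm and Nefl did not overlap, as 0.959% of all 17521 genes tested did not in that direction. The Nefm change stayed between 1.94 and 2.37 when any 1 library was left out, and was 2.21 without the cortex-rich ATRXfl_G34R replicate 3. The change of Nefl ran from 3.12 (without replicate 3 of ATRXfl_G34R) to 4.61, and that of Nefh from 1.24 (without replicate 4 of ATRXfl_G34R) to 3.01. The change of Ina ran from 0.26 (without replicate 2 of ATRXfl_WT) to 1.32. The Prph change ran to 2.36 and was lowest, at 0.71, without ATRXfl_G34R replicate 4, which holds the group's highest Prph value. All 10 mature cortical neuron genes and all 7 mature oligodendrocyte genes were positive too (medians 1.96 and 0.50). Summed neuron markers were at 3488 to 29104 in ATRXfl_G34R and at 1784 to 4258 in ATRXfl_WT, and at 3488 to 5476 in the former without replicate 3. Their part in the members' values was not tested.

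The remaining pairs share the ATRXfl_G34R tumours with that contrast and are also described only. Under H3.3G34R, Nefm was at 756 ± 359 (SD, n = 4) with Atrx floxed against 649.9 ± 64.8 (SD, n = 3) with Atrx intact, a log2 change of 0.12 (SE 0.34). The other changes, all positive where 50% of all genes were, stood at 0.63 (SE 1.16) for Nefl, 1.40 (SE 1.25) for Nefh, 0.03 (SE 0.57) for Ina and 0.26 (SE 1.62) for Prph, and the groups overlapped for all 5 genes, beside 4.64% of all genes that did not. The sign held for Nefh alone when any 1 library was left out (0.51 to 2.28). Nefl was at -0.20 without ATRXfl_G34R replicate 3, and Nefm at -0.17 without ATRXfl_G34R replicate 2. Ina was at -0.13 and -0.27 without ATRXfl_G34R replicates 1 and 2, and at -0.52 without p53_G34R replicate 1. Prph was at -0.69 without ATRXfl_G34R replicate 4, at -1.56 without p53_G34R replicate 2, at -1.29 with libraries of the same title code summed and at -0.46 by DESeq2 and edgeR. With both changes against neither, the log2 changes were 0.67 (SE 1.23) for Nefm, 1.05 (SE 2.22) for Nefl, -0.66 (SE 1.77) for Nefh, -0.46 (SE 0.72) for Ina and -0.01 (SE 1.43) for Prph, again with overlap throughout, beside 2.94% of all genes without it. Of these, 2 were positive, beside 49.2% of all genes. None of the 5 kept its sign over the fits with 1 library left out. Nefm ran from -0.40 to 1.88, Nefl from -0.42 to 3.24 and Nefh from -1.62 to 1.03. Ina ran from -0.99 to 0.17 and Prph from -1.18 to 0.955. The median of the 5 changes was -0.01, 1.03 without p53_WT replicate 3 and 0.56 without both cortex-rich libraries, an alternative added after the data were seen.

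**Figure D3:**
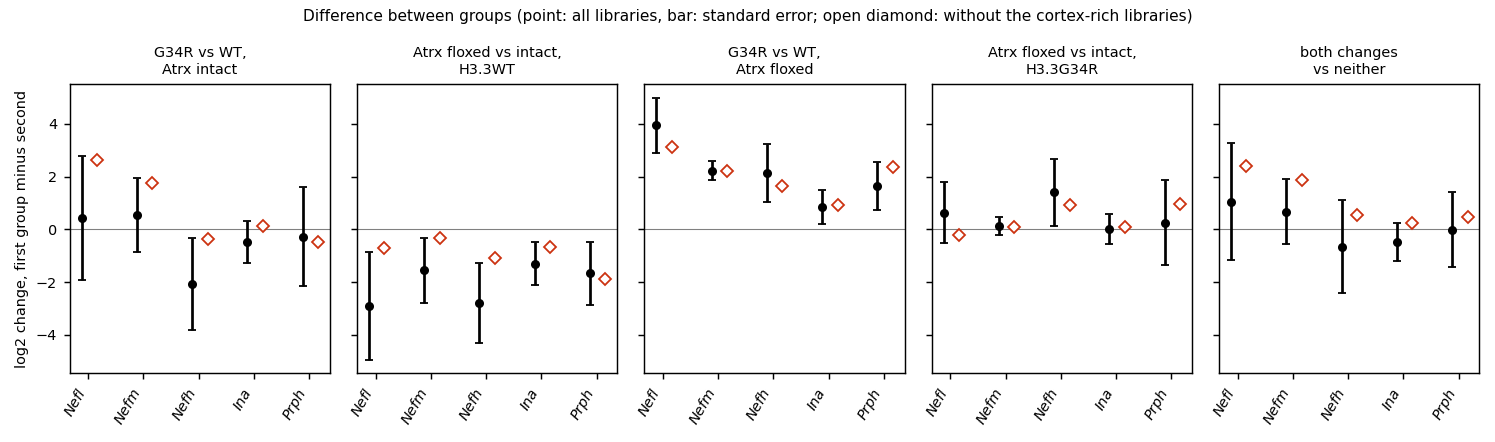
Log2 change of each gene (vertical axis, first group minus second, log2(value + 1) scale) in the 5 pairs of groups, with points for all libraries, bars for the standard error and open diamonds without the cortex-rich libraries. The standard error of Nefm is 0.36 or less where p53_WT is not in the pair and 1.22 or more where it is.

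Pairs of members varied together to different degrees across tumours. Spearman's rho over the 15 libraries was 0.78 between Nefl and Nefm, 0.66 between Nefl and Nefh and 0.56 between Nefm and Ina. Without the cortex-rich libraries (n = 13) these values were 0.69, 0.49 and 0.50. Nefm and Nefh had a rho of 0.31, and 0.03 without those libraries. Prph had 0.43 with Nefh, 0.37 with Nefl, 0.11 with Nefm and 0.02 with Ina, and 0.63, 0.54, 0.17 and -0.05 without those libraries. These values describe libraries that fall into shared groups and differ in their summed neuron and oligodendrocyte markers, and carry no test.

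Against the summed mature neuron genes, rho was 0.69 for Nefm, 0.59 for Nefl, 0.56 for Ina, 0.31 for Nefh and -0.26 for Prph over 15 libraries. Over the 13 without the cortex-rich ones it was 0.57, 0.37, 0.53, -0.03 and -0.28 in the same order. Against the summed mature oligodendrocyte genes, rho over 15 libraries was 0.52 for Nefh, 0.45 for Nefl, 0.31 for Nefm, 0.08 for Prph and -0.25 for Ina. The part of either cell type in the members' values was not tested.

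**Figure D4:**
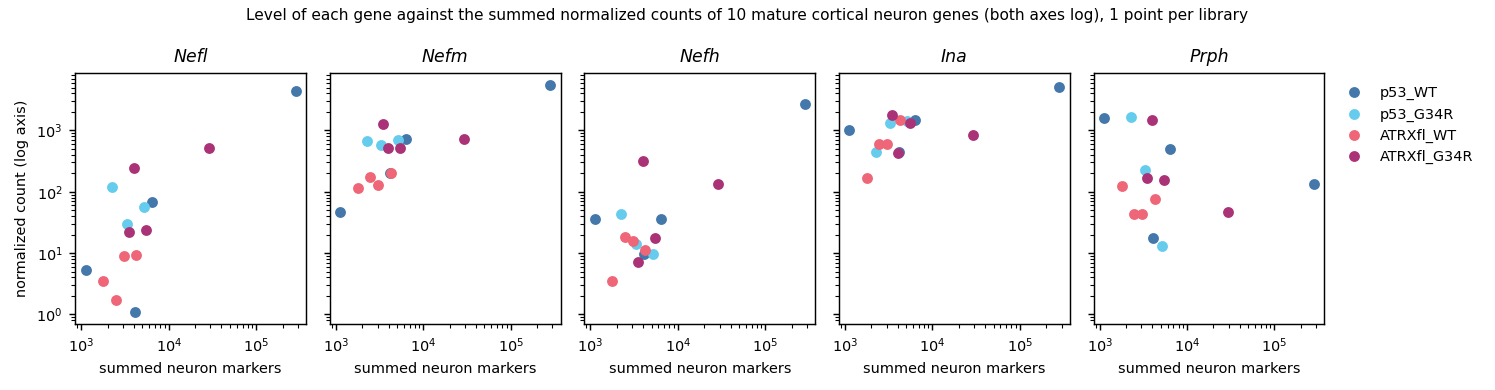
Normalized count of each gene (vertical, log axis) against the summed normalized counts of 10 mature cortical neuron genes (horizontal, log axis), 1 point per library coloured by group. The point at far right is p53_WT replicate 3, and Prph is highest in tumours with 1124 to 3991 neuron counts.

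The 4 genes most like each member were found by Spearman's rho over the 15 libraries among 14689 named genes with a mean of at least 10. They are the top of many values and are given as a description. For Nefm they were Hpca (0.93), a neuronal calcium sensor, Drd2 (0.86), the dopamine D2 receptor, Adcy2 (0.85), an adenylyl cyclase, and Pnma2 (0.85). For Nefl they included Sncb (0.86), beta-synuclein, Map3k5 (0.85), a stress-activated kinase, and Camta1 (0.85). For Nefh they were Mog (0.86), a myelin surface protein, Acat3 (0.85), Sec14l5 (0.84) and Bach2os (0.84). For Ina they were Gpr151 (0.90), an orphan receptor, Erich6 (0.89), Crmp1 (0.88), a growth cone protein, and Rgs7 (0.84), a regulator of G protein signalling. For Prph they were Tuba1c (0.88), an alpha-tubulin, Eif4ebp1 (0.87), an inhibitor of translation initiation, Gars (0.87), glycyl-tRNA synthetase, and Rtl3 (0.87). Rtl3 had a median of 0.0 normalized counts and a highest value of 1187, so most libraries were tied in its rho. After the group means were subtracted, rho was at least 0.79 for all 4 genes listed for Ina and all 4 for Prph, 0.63 to 0.80 for those named for Nefl and Nefm and 0.68 to 0.89 for those of Nefh. Of the 20 genes, 8 stayed among the 4 most like their member without the cortex-rich libraries, and 2 did after subtraction of group means.

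Genes that work with or beside these filaments were counted in 4 lists drawn up with earlier results of these data known. Of all genes tested, 50% were positive for H3.3G34R with Atrx intact and 49.5% for floxed Atrx with wild-type histone. Of the 27 genes of the axonal and neuronal cytoskeleton, 0 were called by limma in either tested comparison, beside 0% and 0.0335% of all genes. With Atrx intact, 11 were positive and 16 negative under H3.3G34R (median -0.15). Under wild-type histone, 9 were positive and 18 negative with Atrx floxed (median -0.51), and 3 had an unadjusted p under 0.05, beside 3.76% of all genes, which were Dpysl5, Map1b and Map1a. Dpysl5, a growth cone protein, was at 406 ± 69.7 (SD, n = 4) against 915 ± 439 (log2 -1.03, SE 0.41), with a limma adjusted p of 0.97546. Map1b, a microtubule protein of growing axons, was at 6161 ± 2753 against 19706 ± 12901 (log2 -1.48, SE 0.60). Both comparisons hold p53_WT replicate 3, where the 27 genes summed to 375797 normalized counts, against 167004 to 202471 in the other p53_WT libraries. The part of that library in the signs of this list was not tested.

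Of 30 genes for neurofilament transport, phosphorylation, cross-linking and turnover, 0 were called by limma in either comparison, beside 0% and 0.0335% of all genes. With Atrx intact, 6 were positive and 24 negative under H3.3G34R (median -0.14). Under wild-type histone, 12 were positive and 18 negative with Atrx floxed (median -0.21). Both pairs hold p53_WT replicate 3, where the 30 genes summed to 449885.5 normalized counts, against 163536 to 171700 in the other p53_WT libraries. The part of that library in these signs was not tested. Dst, a large linker of filaments to other cytoskeleton, was at 14757 ± 2532 (SD, n = 4) with Atrx floxed against 18731 ± 1628 with Atrx intact under wild-type histone (log2 -0.36, SE 0.22, limma adjusted p = 0.97546).

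The 8 other filament genes, of glia, progenitors and nuclei, were mostly positive in both tested comparisons. By limma 0 were called, beside 0% of all genes with Atrx intact and 0.0335% under wild-type histone. With Atrx floxed and wild-type histone, 7 were positive and 1 negative (median 0.48), and with H3.3G34R and Atrx intact 6 were positive and 2 negative (median 0.36). Nes, the filament gene of neural progenitors, was at 11645 ± 3146 (SD, n = 4) in ATRXfl_WT against 7645 ± 2332 in p53_WT (log2 0.62, SE 0.31). In p53_G34R it was at 11254 ± 1852 (SD, n = 3) against 7777 ± 2357 (log2 0.57, SE 0.31). The limma adjusted p was 0.97546 and 0.99999.

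Of 21 regulators of neuronal genes, 20 were tested with Atrx intact (13 positive, 7 negative, median 0.24) and 19 under wild-type histone (12 positive, 7 negative, median 0.12). In each comparison 1 had an unadjusted p under 0.05, beside 1.47% and 3.76% of all genes. In these comparisons, which share the p53_WT libraries, it was Ebf2, a helix-loop-helix regulator, at 27.9 ± 21.7 (SD, n = 3) in p53_G34R and 34.8 ± 42.0 (SD, n = 4) in ATRXfl_WT against 2.39 ± 2.76 and 2.35 ± 2.72 in p53_WT as scaled in each table. Its log2 changes were 2.98 (SE 0.98) and 2.95 (SE 0.96), with limma adjusted p of 0.99999 and 0.97546. Rcor1, a subunit of the corepressor that silences neuronal genes outside neurons, was at 1373 ± 83.3 (SD, n = 3) in p53_G34R against 1099.8 ± 97.2 (SD, n = 4) in p53_WT (log2 0.32, SE 0.21). Neurod2, a regulator of mature cortical neurons, was at 0.603 ± 1.04 against 675 ± 1326 in that pair. Its SD in p53_WT was above its mean, as happens when 1 library sets the mean of a group.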

How the data were processed

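Libraries were made from tumour RNA with a TruSeq mRNA kit, according to the labels. The submitters' processing notes name STAR 2.7, HTSeq and DESeq2 on mm10, with no settings. The 5 deposited tables, 1 for each pair of groups, hold for each library a signal, which the authors made by dividing each gene's reads by a size factor. Per the file headers they also hold the authors' log2 fold change and its error, the score of a Wald test, and p-values before and after adjustment. Division by the value of 1 read gave whole reads for 100% of values within 0.01. Gene symbols matched for 54165 of 54232 IDs (GENCODE vM21).

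The 5 members and all lists were chosen with earlier results of these data known. Each pair was fitted alone with limma 3.58.1 (R 4.3.3, trend and robust options) on log2(signal + 1), over genes with a mean of at least 10, with Benjamini-Hochberg adjustment over all genes tested and a threshold of 0.05. All 5 members passed that filter in every pair. Of 5 pairs, 2 were tested and 3 described. A single-library level is reads divided by a median-of-ratios factor over all 15 libraries. The edgeR 4.0.16 quasi-likelihood test on recovered reads called 0 genes for H3.3G34R with Atrx intact and 2 for floxed Atrx with wild-type histone, where limma called 0 and 6 and DESeq2 1.42.0 called 12 and 78. The limma, edgeR and DESeq2 fits were tested on simulated data. Named genes are the members, Atrx, up to 3 per list with the smallest p in the tested pairs, the 4 most like each member (1 of them is not reported here) and marker genes. Replicate numbers follow accession order.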

Additional observations from a re-analysis of the deposited data

Results flagged for a closer look

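In 15 groupings of 1 gene in 1 group of 4 tumours, 4 held a library far above the rest, and 3 of the 4 came from 1 library. By chance the rule flags about 1 in 20 where values follow a normal curve. Its rate for counts like these, which are not on a log scale, was not measured. In p53_WT, replicate 3 stood apart for Nefl (4337 normalized counts against at most 67.5 in the other 3), Nefm (5575 against at most 717) and Nefh (2710.4 against at most 36.3). The same library had 37985 counts of the synaptic gene Snap25 and 1239 of Pdgfa, the lowest Pdgfa value of the 15. In ATRXfl_G34R, replicate 4 stood apart for Prph, at 1476 against at most 166. Ina had no such library. The p53_G34R group, with 3 tumours, was not checked in this way.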

How the results depend on the processing

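In both tested comparisons 0 of the 5 genes were called under every alternative run, DESeq2 giving no adjusted p for Nefl and Nefh: pseudocounts of 0.5 and 5, no filter, TMM scaling, DESeq2, edgeR, a joint fit of the 4 groups, sums of libraries whose titles begin with the same code (ATRXfl_G34R replicates 1 and 4, p53_G34R replicates 2 and 3, p53_WT replicates 3 and 4), and each library left out. The lowest adjusted p over these alternatives was 0.1543, for Nefm with floxed Atrx and wild-type histone by DESeq2. With 1 library left out, the median change of the 5 genes ran from 1.24 to 2.37 for H3.3G34R with Atrx floxed, from 0.10 to 1.11 for floxed Atrx with H3.3G34R and from -0.99 to 1.03 for both changes against neither. Signs of some genes depended on the tool. For H3.3G34R with Atrx intact, Nefm was at -1.32 by DESeq2, -1.27 by edgeR and 0.55 by limma, and Nefl at -4.01, -3.96 and 0.43. In that comparison the sign of Prph turned with the title codes summed (1.13) and without p53_G34R replicate 2 (1.54), p53_WT replicate 2 (0.70) or p53_WT replicate 4 (0.15). By DESeq2 and edgeR Prph was at 0.19 and 0.22. The sign of Ina turned without p53_G34R replicate 1 (0.05) or p53_WT replicate 3 (0.13), that of Nefm without p53_WT replicate 2 (-0.52), and that of Nefl with a pseudocount of 5 (-0.04) and without p53_G34R replicate 1 (-0.06), p53_WT replicate 1 (-1.04) or p53_WT replicate 2 (-0.51). Nefh kept its sign there, and all 5 genes did with floxed Atrx and wild-type histone. For both changes against neither, Nefl was at -2.44 by DESeq2, -2.37 by edgeR and 1.05 by limma, and Nefm at -1.10, -1.05 and 0.67. The median there was -1.10 by DESeq2 and -1.05 by edgeR, beside -0.01 by limma, and the cause was not tested. No paired analysis was possible because the labels give no replicate numbers, which here follow accession order. Depth limits Nefl, at 10 reads or fewer in 6 tumours, and Nefh, at 3, 7 and 9 reads in 3.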

Other observations

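The gene most like Prph is also its neighbour. Tuba1c lies at chr15:99029891-99038110 on the plus strand, 17063 bases before Prph, and was singled out after its position was seen. It was at 1666 normalized counts in ATRXfl_G34R replicate 4, 1161 in p53_WT replicate 2, 911 in p53_G34R replicate 1 and 768 in p53_WT replicate 4. These are the 4 tumours with the highest Prph as well. In the other 11 libraries Tuba1c was at 195 to 744. Spearman's correlation with Prph was 0.88 over 15 libraries and 0.93 over the 13 without the cortex-rich ones. The 3 other genes within 100000 bases of Prph had a correlation of 0.38 (Troap, a spindle protein gene), 0.09 (C1ql4) and 0.04 (Spats2). A correlation of at least 0.5 with Prph was held by 8.6% of all named genes.

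Around Nefh and Ina, neighbours within the same distance had correlations from -0.17 (Nf2) to 0.77 (Ap1b1, a clathrin adaptor subunit) for Nefh and from -0.03 (Usmg5) to 0.60 (Nt5c2) for Ina. Nt5c2 is the gene whose exons overlap Ina, and how reads of that stretch were counted is not given in the sources used here. Within 100000 bases of Nefl and Nefm there were 0 other named genes with a mean of at least 10.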
